A study of Mus musculus with 12 samples.

Results

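The genes of cholesterol and fatty acid synthesis were examined in mouse liver under an iron-loaded and a control diet. The group was given as a list of symbols and holds 34 genes, 20 of the sterol branch and 14 of the fatty acid branch, of 27022 genes in the count table. Each of the 34 symbols matched 1 Ensembl identifier. The livers came from 6 female SJL/J mice aged 11 weeks. All mice ate the AIN-93G control diet with 50 ppm iron from 3 weeks of age, and 1 cage was changed at 6 weeks to the high iron diet with 2% carbonyl iron. The mice were fasted on the morning of collection and perfused with saline, and RNA was taken from the large lobe of 3 mice per diet. The same RNA was prepared with a whole-transcript kit (Trad-KAPA) and with a kit that reads the 3’ end (3’-LEXO), which gave 12 libraries. As each diet was given to a single cage, an effect of the diet and one of the cage cannot be told apart, and the p-values measure the spread between mice of 1 cage.

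Cholesterol is built from acetyl-CoA through mevalonate, the isoprenoid intermediates, squalene and lanosterol. Fatty acids are built from the same acetyl-CoA by carboxylation, assembly on fatty acid synthase, elongation and desaturation. In hepatocytes both branches are controlled by the SREBP transcription factors, which are released from the endoplasmic reticulum when sterols are low. SREBP-2, encoded by Srebf2, mainly drives the sterol genes. SREBP-1c, a product of Srebf1 that insulin and LXR induce, mainly drives the fatty acid genes. Several of the enzymes contain a di-iron centre, among them Msmo1, Sc5d, Scd1, Fads1 and Fads2.

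The library totals were between 13834682 and 16553616 counts with Trad-KAPA and between 10724672 and 14104236 with 3’-LEXO. A level is given as CPM, which is the count of a gene per 1 M counts of the TMM-scaled library. Diet changes were tested within each kit with edgeR's quasi-likelihood test, 3 iron-loaded against 3 control libraries. A gene was called at a Benjamini-Hochberg adjusted p below 0.05 over all genes tested, and each log2 fold change is iron-loaded over control with its SE. The 5 hepatocyte markers summed to 138556 to 159896 CPM in the control and 101745 to 148467 CPM in the iron-loaded libraries with Trad-KAPA. With 3’-LEXO they summed to 55242 to 67950 CPM and 40444 to 63810 CPM. Alb made up most of each sum, and the lowest sum with each kit was that of iron-loaded mouse 1. Hamp, which encodes the iron-regulated hormone hepcidin, was at 515, 44.5 and 88.9 CPM on the control and 1245, 1034 and 1057 CPM on the iron-loaded diet with Trad-KAPA, so that control mouse 1 was the highest of its group. Of 33 markers of cell types other than hepatocytes, 27 were tested with Trad-KAPA, where Vsig4 and Lyve1 were called higher and Des lower. With 3’-LEXO 25 were tested, and Lyve1 was called higher and Stab2 lower. With Trad-KAPA, the 6 macrophage markers summed to 388 to 579.6 CPM in the control and to 587 to 616 CPM in the iron-loaded libraries. The 3 red cell markers summed to 16.98 to 142 CPM and 13.2 to 25.3 CPM, and the adipocyte markers to 1.24 to 1.96 CPM and 1.85 to 5.29 CPM. The adipocyte sum was almost all Cidec, at 1.21, 1.89 and 1.24 CPM on the control and 5.29, 2.34 and 1.77 CPM on the iron-loaded diet. Adipoq and Plin1 were at 0 to 0.071 CPM in every Trad-KAPA library. With 3’-LEXO, the macrophage sums overlapped (914 to 1137 CPM and 1060.0 to 1103 CPM), while the 5 stellate cell markers summed to 489.9 to 533 CPM in the control and 445 to 473 CPM in the iron-loaded libraries and the 5 sinusoidal endothelial markers to 160.3 to 191 CPM and 131 to 149 CPM. With Trad-KAPA the stellate sums (267 to 359 CPM and 304 to 339 CPM) and the endothelial sums (208 to 255 CPM and 202 to 265 CPM) overlapped. The 4 cholangiocyte markers summed to 6.04 to 6.87 CPM in the control and 4.68 to 5.82 CPM in the iron-loaded libraries with Trad-KAPA. With 3’-LEXO they summed to 12.9 to 15.9 CPM and 9.81 to 11.4 CPM, so that the diets were separate with both kits. Sox9 was the largest part of these sums, at a log2 fold change of -0.57 with Trad-KAPA and -0.66 with 3’-LEXO. Epcam went the other way, at 0.52 and 0.15, and neither gene was called. Krt19 and Krt7 were below 1 CPM in every library. The part of these cells in the results was not tested.

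Iron-loaded mouse 1 stood apart from the other iron-loaded mice with both kits. The root mean square log2 difference between its library and those of mice 2 and 3 was 0.466 and 0.462 with Trad-KAPA and 0.535 and 0.486 with 3’-LEXO. Between mice 2 and 3 it was 0.157 and 0.229, less than between any pair of control mice (0.280 to 0.373). Alb was at 87356, 131600.0 and 133070.0 CPM in iron-loaded mice 1, 2 and 3 with Trad-KAPA. With that kit, 19 of the 20 sterol and 13 of the 14 fatty acid members were lower in mouse 1 than in the mean of mice 2 and 3, compared to 6565 of the 13151 genes tested. With 3’-LEXO it was 18 of 19 and 13 of 14, compared to 6570 of 13301. Results are therefore also given without iron-loaded mouse 1, and with the counts of mice 2 and 3 summed to 1 sample.

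The promoters were searched on both strands for 4 motifs that regulators of lipid synthesis are known to bind, the SREBP site TCACNCCAC, the NF-Y box CCAAT, the Sp1 box GGGCGG and the E-box CACGTG. A window runs from 250 bases before to 50 after the start given by RefSeq for GRCm38.p6. Of the 34 members, 28 had an entry, 16 sterol genes with 19 windows and 12 fatty acid genes with 15. Of the sterol windows, 78.9% held an NF-Y box and 84.2% an Sp1 box, compared to 37.4% and 35.7% of all 32851 promoters. Of the fatty acid windows, 66.7% held an NF-Y box and 46.7% an Sp1 box. The E-box was in 21.1% of the sterol and 6.67% of the fatty acid windows, compared to 7.15% of all. The SREBP letters were found in 1 member, Hmgcs1, and in 1.24% of all promoters. Matches overlapped each other in 1 member window, that of Fasn. A match describes the letters and is no evidence of binding.

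The windows of Acacb, Elovl5 and Lss are shown because these were, of the members called with both kits that had an entry, those with the largest changes with Trad-KAPA. Capitals mark the motifs. They lie on the plus strand of GRCm38.p6 at chr5:114165268-114165567, chr9:77917115-77917414 and chr10:76531355-76531654. Acacb holds an NF-Y box, Elovl5 an E-box and a pair of NF-Y boxes, and Lss an NF-Y box and a pair of Sp1 boxes. The start used for Acacb lies 18983 bases downstream of the start of the gene in GENCODE M21, and gene counts do not tell which start was used.
Acacb: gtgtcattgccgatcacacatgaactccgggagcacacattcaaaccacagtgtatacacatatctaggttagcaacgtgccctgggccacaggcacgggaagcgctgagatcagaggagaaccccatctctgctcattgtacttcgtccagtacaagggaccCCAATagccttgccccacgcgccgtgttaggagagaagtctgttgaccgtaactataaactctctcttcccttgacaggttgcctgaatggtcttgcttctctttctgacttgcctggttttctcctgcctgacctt
Elovl5: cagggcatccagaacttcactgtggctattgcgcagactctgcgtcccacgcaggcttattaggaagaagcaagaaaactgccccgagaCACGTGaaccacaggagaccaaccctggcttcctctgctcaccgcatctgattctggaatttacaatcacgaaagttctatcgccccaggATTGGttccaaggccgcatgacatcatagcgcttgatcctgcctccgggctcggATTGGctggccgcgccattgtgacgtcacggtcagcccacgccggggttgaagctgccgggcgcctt
Lss: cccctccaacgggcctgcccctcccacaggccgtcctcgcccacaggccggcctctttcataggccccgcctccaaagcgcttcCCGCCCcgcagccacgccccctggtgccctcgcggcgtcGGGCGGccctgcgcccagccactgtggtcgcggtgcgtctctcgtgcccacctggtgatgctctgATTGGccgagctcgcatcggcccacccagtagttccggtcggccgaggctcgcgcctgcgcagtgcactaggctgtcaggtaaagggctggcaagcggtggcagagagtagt

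More sterol members were higher than lower on the iron-loaded diet, and more fatty acid members were lower than higher. With Trad-KAPA, 7 of the 20 sterol members were called higher (35%), compared to 8.77% of all genes tested, and 1 was called lower, compared to 8.37%. Of the 14 fatty acid members, 5 were called lower (35.7%) and 0 higher by edgeR. In either direction 17.1% of all genes were called. With 3’-LEXO, 5 of the 19 sterol members tested were called higher (26.3%), compared to 3.17% of all genes, and 2 of the 14 fatty acid members were called lower (14.3%), compared to 2.92%. In either direction 6.1% of all genes were called with this kit. The 7 members called with 3’-LEXO were among the 13 called with Trad-KAPA and had the same direction. Of the 12229 genes tested with both kits, 5.23% were called with both.

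The branches also differed in the separation of the groups. With Trad-KAPA, all iron-loaded libraries were above all control libraries for 9 of 20 sterol and 0 of 14 fatty acid members. The share of all genes was 20.7%. Iron-loaded libraries were below for 4 of 20 sterol members, near the 21.1% of all genes, and for 7 of 14 fatty acid members. With 3’-LEXO they were above for 6 of 19 and 0 of 14, compared to 15.9% of all genes. They were below for 3 of 19 sterol members, near the 15.6% of all genes, and for 8 of 14 fatty acid members. The median log2 fold change of the sterol members was 0.61 with Trad-KAPA and 0.59 with 3’-LEXO, and that of the fatty acid members was -0.74 and -0.66. Over all genes tested it was 0.02 and 0.01. These counts and medians describe a chosen list and were not tested as a set.

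**Figure D1:**
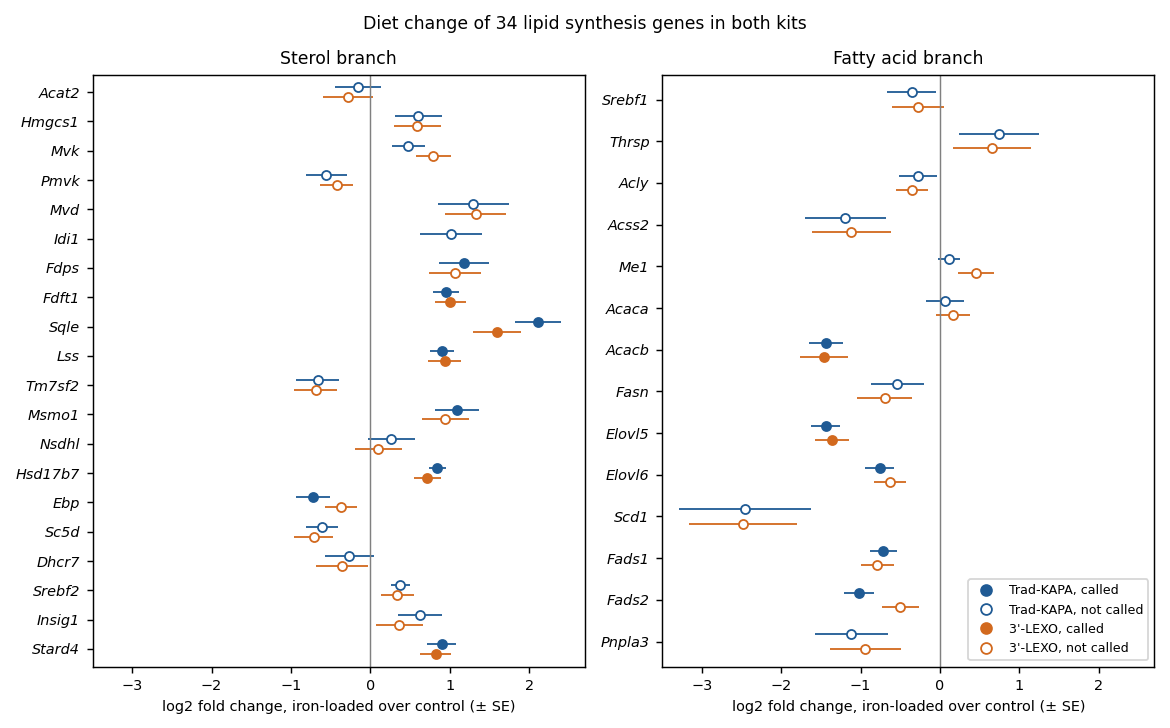
Log2 fold change of each of the 34 members, iron-loaded over control, with its SE for Trad-KAPA and 3’-LEXO. Filled points were called by edgeR at an adjusted p below 0.05, and Idi1 was not tested with 3’-LEXO. The highest sterol value with either kit is that of Sqle, and the lowest fatty acid value is that of Scd1, which was not called.

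The number of calls depended on single mice. Without iron-loaded mouse 1, 13 sterol members were called higher and 2 lower with Trad-KAPA and 9 higher with 3’-LEXO. The iron-loaded group of this fit holds only mice 2 and 3, with each kit the closest pair, whose small spread enters its p-values. Of the fatty acid members, 7 and 3 were then called lower, and Thrsp was called higher with both kits. Of all genes, 10.7% were called higher and 10.1% lower in this fit with Trad-KAPA, and 3.3% and 3.07% with 3’-LEXO. With iron-loaded mice 2 and 3 summed, 5 and 1 sterol members were called higher and 4 and 2 fatty acid members lower. Of all genes, 4.64% and 1.78% were then called higher and 3.88% and 1.48% lower. Without control mouse 3, edgeR called 0 sterol members with 3’-LEXO, in a fit that called 199 genes in all. Without control mouse 1 it called 1 sterol member. Over the fits that left out 1 mouse, 199 to 871 genes were called with this kit. In bulk liver, fewer cells of a type and less RNA per cell cannot be told apart.

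Of the sterol members, Sqle had the largest change. Sqle (ENSMUSG00000022351, GRCm38 chr15:59315077-59331192, plus strand) encodes squalene epoxidase, a rate-limiting enzyme of the pathway. With Trad-KAPA it was at 20.1, 51.7 and 38.0 CPM in control mice 1, 2 and 3 and at 147, 162 and 166 CPM in iron-loaded mice 1, 2 and 3. With 3’-LEXO it was at 16.1, 45.4 and 34.6 CPM on the control and 92.7, 104 and 94.2 CPM on the iron-loaded diet. The groups did not overlap with either kit, and the 3 iron-loaded mice were close to each other. Its log2 fold change was 2.11 ± 0.29 (SE, n = 3 per diet, edgeR adjusted p = 0.00485) with Trad-KAPA and 1.60 ± 0.30 (adjusted p = 0.0182) with 3’-LEXO. The call was kept in 6 of 6 and 5 of 6 fits that left out 1 mouse, with an adjusted p of 0.0743 with 3’-LEXO without control mouse 3.

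Fdft1 (ENSMUSG00000021273, GRCm38 chr14:63145150-63179578, minus strand) encodes squalene synthase, the first enzyme committed to sterols. With Trad-KAPA it was at 42.4, 59.9 and 45.1 CPM on the control and 79.3, 101 and 104 CPM on the iron-loaded diet. With 3’-LEXO the values were 74.5, 69.5 and 78.0 CPM and 109, 149 and 187 CPM. The groups were separate with both kits, and iron-loaded mouse 1 was the lowest of its diet. The change on the log2 scale was 0.95 ± 0.16 (edgeR adjusted p = 0.00974) and 1.00 ± 0.20 (adjusted p = 0.0199). Of its merged exons, 18.3% overlap those of Ctsb on the opposite strand, and whether the counting used strand was not given in the sources used here, so that the reads of the overlap cannot be assigned.

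Lss (ENSMUSG00000033105, GRCm38 chr10:76531588-76557138, plus strand), whose promoter is shown above, encodes the synthase that closes squalene epoxide to lanosterol. Its levels were 57.1, 71.2 and 82.2 CPM on the control and 115, 141 and 137 CPM on the iron-loaded diet with Trad-KAPA. They were 9.35, 16.3 and 15.7 CPM and 24.3, 27.4 and 27.5 CPM with 3’-LEXO. All iron-loaded libraries were above all control libraries of their kit. The log2 fold change was 0.90 ± 0.15 (edgeR adjusted p = 0.00923) and 0.94 ± 0.21 (adjusted p = 0.0333).

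Hsd17b7 (ENSMUSG00000026675, GRCm38 chr1:169949535-169969241, minus strand) encodes a ketosteroid reductase that acts during the removal of the C4 methyl groups. Control mice had 89.3, 103 and 92.6 CPM and iron-loaded mice 180.0, 162 and 169 CPM with Trad-KAPA. With 3’-LEXO they had 82.9, 116 and 86.7 CPM and 162, 167 and 140.3 CPM. The groups were separate with both kits, and this was the 1 sterol member for which iron-loaded mouse 1 was not below the mean of mice 2 and 3. The change was 0.84 ± 0.11 on the log2 scale (edgeR adjusted p = 0.00374) and 0.72 ± 0.17 (adjusted p = 0.0389). Fdft1, Lss and Hsd17b7 were called with Trad-KAPA in 6 of 6 fits that left out 1 mouse. With 3’-LEXO they were called in 2, 1 and 2 of 6, the highest adjusted p being 0.0815 for Fdft1 without control mouse 2, 0.0884 for Lss without iron-loaded mouse 3 and 0.138 for Hsd17b7 without control mouse 1.

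**Figure D2:**
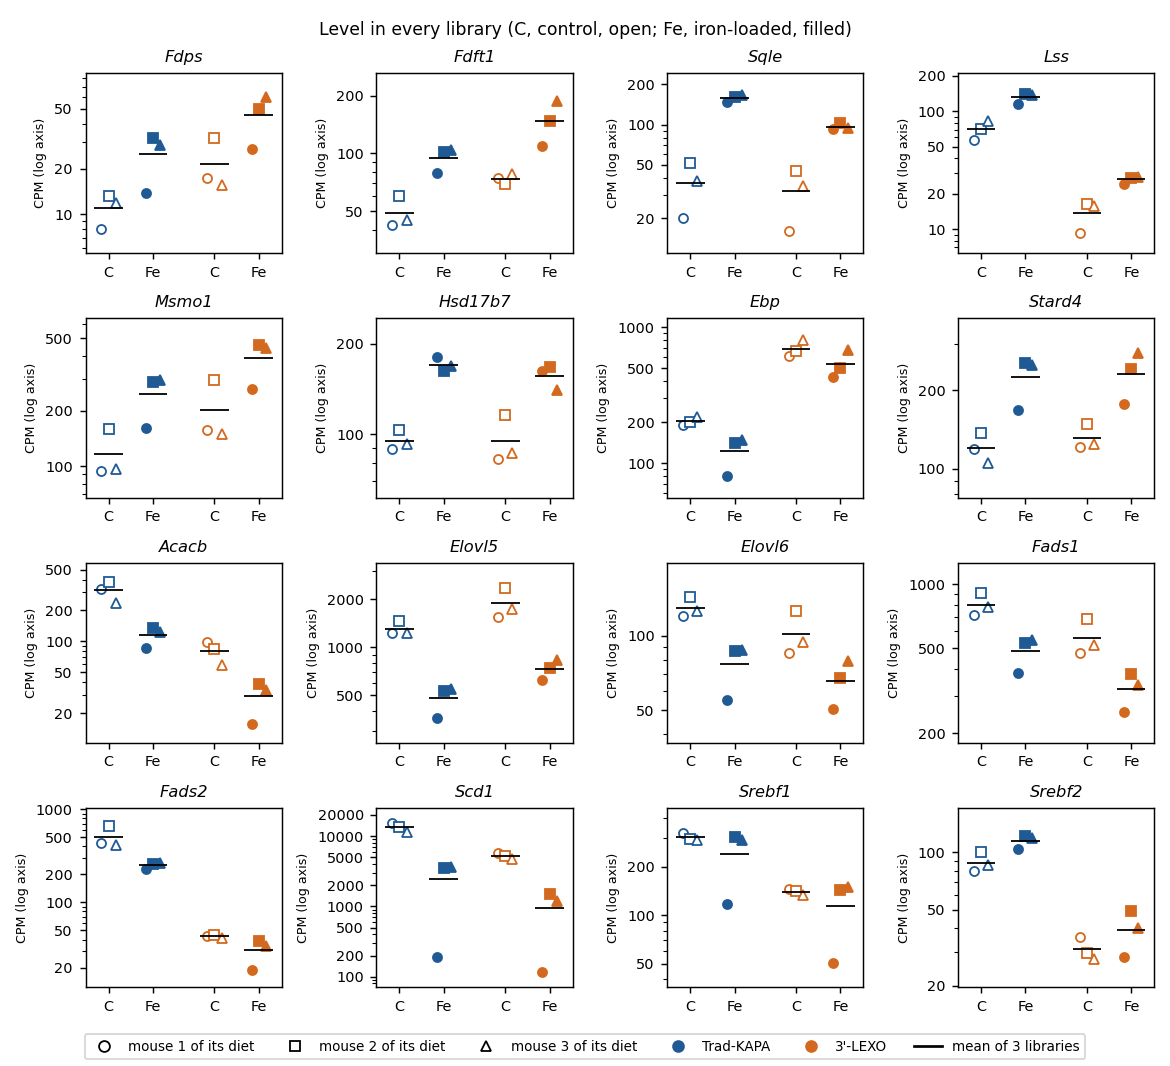
CPM on a log axis in every library for the 13 members called with either kit and for Scd1, Srebf1 and Srebf2. Open points are control (C) and filled points iron-loaded (Fe) mice, the marker shape gives the mouse and the line the mean of 3 libraries. Sqle is separated by diet with both kits, and iron-loaded mouse 1 lies far below mice 2 and 3 for Scd1 and Srebf1.

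By edgeR, Fdps, Msmo1 and Ebp were called with Trad-KAPA and not with 3’-LEXO, whereas DESeq2 also called Fdps and Msmo1 with 3’-LEXO (adjusted p = 0.0164 and 0.0176). Fdps makes farnesyl pyrophosphate, the branch point between sterols and other isoprenoids. It was at 7.98, 13.3 and 11.97 CPM on the control and 13.9, 32 and 29.0 CPM on the iron-loaded diet with Trad-KAPA, and at 17.4, 32.03 and 15.7 CPM and 27.1, 49.7 and 60.0 CPM with 3’-LEXO. The groups were narrowly separate with the first kit and overlapped with the other. Its change was 1.18 ± 0.31 (log2, edgeR adjusted p = 0.0363) and 1.07 ± 0.33 (adjusted p = 0.0813). Of its merged exons, 26.7% are shared with Gm43738 on the same strand.

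Msmo1 is the C4-methylsterol oxidase. With Trad-KAPA it was at 94.3, 159 and 96.2 CPM on the control and 161, 287 and 295 CPM on the iron-loaded diet, and with 3’-LEXO at 158, 296 and 151 CPM and 262, 457 and 443 CPM. Iron-loaded mouse 1 was near control mouse 2 with both kits. Its change was 1.09 ± 0.28 (log2, edgeR adjusted p = 0.0321) and 0.94 ± 0.30 (adjusted p = 0.0873).

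Ebp, the sterol isomerase that moves the double bond of the ring, was the sterol member called lower. It was at 190.1, 199.9 and 220.2 CPM on the control and 81.0, 141 and 148 CPM on the iron-loaded diet with Trad-KAPA, and at 613, 668 and 800.1 CPM and 432, 502 and 679 CPM with 3’-LEXO. The groups were separate with the first kit and overlapped with the other. Its change was -0.72 ± 0.21 (log2, edgeR adjusted p = 0.0494) and -0.37 ± 0.20 (adjusted p = 0.291). The Trad-KAPA call was kept in 1 of 6 fits that left out 1 mouse for Ebp, 1 of 6 for Fdps and 2 of 6 for Msmo1, with the highest adjusted p at 0.142 for Ebp and 0.116 for Msmo1 without control mouse 3, and 0.113 for Fdps without control mouse 1.

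The other 10 sterol enzymes were called with neither kit by edgeR, and their log2 fold changes lay on both sides of 0. The lowest with Trad-KAPA was -0.66 ± 0.27 for Tm7sf2, a sterol reductase (adjusted p = 0.123, edgeR), and the highest 1.29 ± 0.45 for Mvd, the last enzyme of the mevalonate steps (adjusted p = 0.0791). With 3’-LEXO the lowest was -0.72 ± 0.25 for Sc5d, the lathosterol oxidase (adjusted p = 0.110, edgeR), and the highest 1.33 ± 0.38 for Mvd (adjusted p = 0.0690). DESeq2 called Sc5d lower with both kits (adjusted p = 0.0215 and 0.0387), and with 3’-LEXO it called Mvk, the mevalonate kinase, and Mvd higher (adjusted p = 0.0191 and 0.00510). Without iron-loaded mouse 1, Mvd was called by edgeR with both kits, at 1.63 (adjusted p = 0.0109) and 1.66 (adjusted p = 0.00267). With iron-loaded mice 2 and 3 summed it was called with neither kit, and was at 1.11 (edgeR adjusted p = 0.165) with Trad-KAPA. Hmgcs1, which makes HMG-CoA, was at 0.60 ± 0.29 (adjusted p = 0.180, edgeR) and 0.59 ± 0.30 (adjusted p = 0.249). Idi1, the isopentenyl isomerase, had less than 1 CPM in every 3’-LEXO library and was not tested there, and 25.3% of its 50-base windows occur in other genes as well. For Acat2, the thiolase at the start of the pathway, 39.1% of these windows are shared, and Acat3 shares the most.

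Of the regulators and the carrier, Stard4 was called. Stard4 carries cholesterol between membranes. It was at 119, 137 and 105 CPM on the control and 168, 254 and 249 CPM on the iron-loaded diet with Trad-KAPA, and at 121, 148 and 124 CPM and 177, 241 and 277 CPM with 3’-LEXO. The groups were separate with both kits. Its change was 0.90 ± 0.18 (log2, edgeR adjusted p = 0.0151) and 0.82 ± 0.19 (adjusted p = 0.0370), and the call was kept in 4 of 6 and 1 of 6 fits that left out 1 mouse, with the highest adjusted p at 0.0599 and 0.131 without control mouse 3.

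Srebf2, which encodes SREBP-2, was called by edgeR with neither kit in the fit of all mice. It was at 79.8, 100.3 and 85.4 CPM on the control and 104, 122 and 119 CPM on the iron-loaded diet with Trad-KAPA, and at 35.9, 29.9 and 27.5 CPM and 28.5, 49.4 and 40.1 CPM with 3’-LEXO. The groups were separate with the first kit and overlapped with the other, and the log2 fold change was 0.38 ± 0.12 (edgeR adjusted p = 0.0668) and 0.34 ± 0.21 (adjusted p = 0.339). Insig1, which holds the SREBPs in the endoplasmic reticulum, was at 0.62 ± 0.28 (adjusted p = 0.151, edgeR) and 0.36 ± 0.30 (adjusted p = 0.478). Without iron-loaded mouse 1, both were called higher by edgeR with Trad-KAPA, Srebf2 at 0.45 (adjusted p = 0.0206) and Insig1 at 0.89 (adjusted p = 0.00910), and neither with 3’-LEXO, where they were at 0.52 (adjusted p = 0.0852) and 0.62 (adjusted p = 0.123). With iron-loaded mice 2 and 3 summed, edgeR called neither gene with either kit. Srebf2 was then at 0.35 (edgeR adjusted p = 0.168) and Insig1 at 0.47 (adjusted p = 0.321) with Trad-KAPA.

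In the fatty acid branch, the calls fell on 1 carboxylase and on elongases and desaturases. Acacb (ENSMUSG00000042010, GRCm38 chr5:114146535-114250761, plus strand) encodes the acetyl-CoA carboxylase of the mitochondrial surface, whose malonyl-CoA limits fatty acid oxidation. It was at 322, 381 and 235 CPM on the control and 86.9, 135 and 125 CPM on the iron-loaded diet with Trad-KAPA, and at 98.9, 84.2 and 59.4 CPM and 15.9, 38.5 and 33.9 CPM with 3’-LEXO. All iron-loaded libraries were below all control libraries of their kit, with mouse 1 the lowest. Its change was -1.44 ± 0.22 (log2, edgeR adjusted p = 0.00646) and -1.46 ± 0.31 (adjusted p = 0.0258), and the call was kept in 6 of 6 and 2 of 6 fits that left out 1 mouse, with an adjusted p of 0.0937 with 3’-LEXO without control mouse 1. Acaca, the cytosolic carboxylase that feeds fatty acid synthesis, was at 0.06 ± 0.24 (adjusted p = 0.875, edgeR) and 0.17 ± 0.21 (adjusted p = 0.664), and 30.4% of its 50-base windows occur elsewhere.

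Elovl5 (ENSMUSG00000032349, GRCm38 chr9:77917364-77984519, plus strand) elongates polyunsaturated fatty acids. It was at 1229.5, 1448 and 1223 CPM on the control and 361, 530.0 and 548 CPM on the iron-loaded diet with Trad-KAPA. With 3’-LEXO it was at 1553, 2358 and 1725 CPM and 619.6, 739.8 and 832 CPM. The groups did not overlap with either kit. Its log2 fold change was -1.44 ± 0.18 (edgeR adjusted p = 0.00374) and -1.36 ± 0.21 (adjusted p = 0.00784), and it was called in 6 of 6 fits that left out 1 mouse with each kit.

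By edgeR, Elovl6, Fads1 and Fads2 were called lower with Trad-KAPA and not with 3’-LEXO, whereas DESeq2 also called Fads1 with 3’-LEXO (adjusted p = 0.00479). Elovl6 elongates palmitate. It was at 119, 144 and 125 CPM on the control and 55.2, 86.9 and 87.7 CPM on the iron-loaded diet with Trad-KAPA, and at 84.8, 125 and 94.4 CPM and 50.7, 67.6 and 79.0 CPM with 3’-LEXO. The groups did not overlap with either kit, and the change was -0.76 ± 0.18 (log2, edgeR adjusted p = 0.0270) and -0.63 ± 0.20 (adjusted p = 0.0938).

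Fads1 and Fads2 are the front-end desaturases of polyunsaturated fatty acid synthesis. Fads1 was at 718, 907 and 781 CPM on the control and 383, 531 and 550.0 CPM on the iron-loaded diet with Trad-KAPA, and at 477, 683 and 518 CPM and 251, 381 and 337 CPM with 3’-LEXO. Fads2 was at 436, 670.0 and 416 CPM and 229, 257 and 263 CPM with Trad-KAPA, and at 43.1, 44.7 and 42.0 CPM and 19.0, 38.9 and 34.3 CPM with 3’-LEXO. For both genes the iron-loaded libraries were below the control libraries with each kit. The change of Fads1 was -0.72 ± 0.17 (log2, edgeR adjusted p = 0.0257) and -0.79 ± 0.21 (adjusted p = 0.0524). That of Fads2 was -1.02 ± 0.19 (edgeR adjusted p = 0.0123) and -0.50 ± 0.23 (adjusted p = 0.213). Leaving out 1 mouse kept the Trad-KAPA call in 3 of 6 fits for Elovl6, 2 of 6 for Fads1 and 6 of 6 for Fads2, with an adjusted p of 0.0909 for Elovl6 and 0.0876 for Fads1 without control mouse 2.

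Scd1 had the lowest log2 fold change of all members but was not called, and is described after its values were seen. Scd1 (ENSMUSG00000037071, GRCm38 chr19:44394455-44407879, minus strand) makes oleate from stearate. With Trad-KAPA it was at 15279.8, 13386 and 11581 CPM in control mice 1, 2 and 3 and at 189, 3550.4 and 3607 CPM in iron-loaded mice 1, 2 and 3. With 3’-LEXO it was at 5729, 5169 and 4788 CPM and 117, 1509.7 and 1187 CPM. All iron-loaded libraries were below the control libraries, and the Trad-KAPA control mean was 70.9 times the level of iron-loaded mouse 1 and 3.75 times the mean of mice 2 and 3. The log2 fold change was -2.45 ± 0.83 (edgeR adjusted p = 0.0743) with Trad-KAPA and -2.48 ± 0.68 (adjusted p = 0.0600) with 3’-LEXO. Without iron-loaded mouse 1 it was -1.90 (adjusted p = 0.000266) and -1.96 (adjusted p = 0.000237) by edgeR, and with mice 2 and 3 summed it was -2.83 (adjusted p = 0.104) and -2.85 (adjusted p = 0.0794).

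Srebf1 was at 326, 297 and 295 CPM on the control and 118, 304 and 294 CPM on the iron-loaded diet with Trad-KAPA, and at 144, 141 and 133 CPM and 50.7, 143 and 150.2 CPM with 3’-LEXO. Iron-loaded mouse 1 was below all other mice with both kits, while mice 2 and 3 were within or near the control range. The log2 fold change was -0.36 ± 0.31 (edgeR adjusted p = 0.443) and -0.28 ± 0.33 (adjusted p = 0.629), and the counts do not separate the SREBP-1a and SREBP-1c transcripts. Thrsp, a lipogenic protein that thyroid hormone induces, was at 274, 248 and 127 CPM on the control and 114, 487 and 483 CPM on the iron-loaded diet with Trad-KAPA, with a log2 fold change of 0.74 ± 0.50 (adjusted p = 0.329, edgeR) and 0.65 ± 0.49 (adjusted p = 0.440) with 3’-LEXO. Its iron-loaded mice thus lay on both sides of the controls. Without iron-loaded mouse 1 Thrsp was at 1.17 (edgeR adjusted p = 0.0166) and 1.08 (adjusted p = 0.0389). With mice 2 and 3 summed it was at 0.48 (edgeR adjusted p = 0.592) and 0.36, and was called with neither kit.

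Acly, Acss2 and Me1, which supply acetyl-CoA and NADPH, Fasn, the synthase, and Pnpla3, a lipid droplet protein, were called with neither kit by edgeR, whereas DESeq2 called Pnpla3 lower with Trad-KAPA (adjusted p = 0.0492). The lowest log2 fold change of these was that of Acss2, -1.19 ± 0.52 (adjusted p = 0.142, edgeR) and -1.12 ± 0.50 (adjusted p = 0.200), and the highest that of Me1, 0.12 ± 0.14 (adjusted p = 0.581) and 0.45 ± 0.23 (adjusted p = 0.253). Fasn was at -0.54 ± 0.33 (adjusted p = 0.290, edgeR) and -0.70 ± 0.34 (adjusted p = 0.237).

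**Figure D3:**
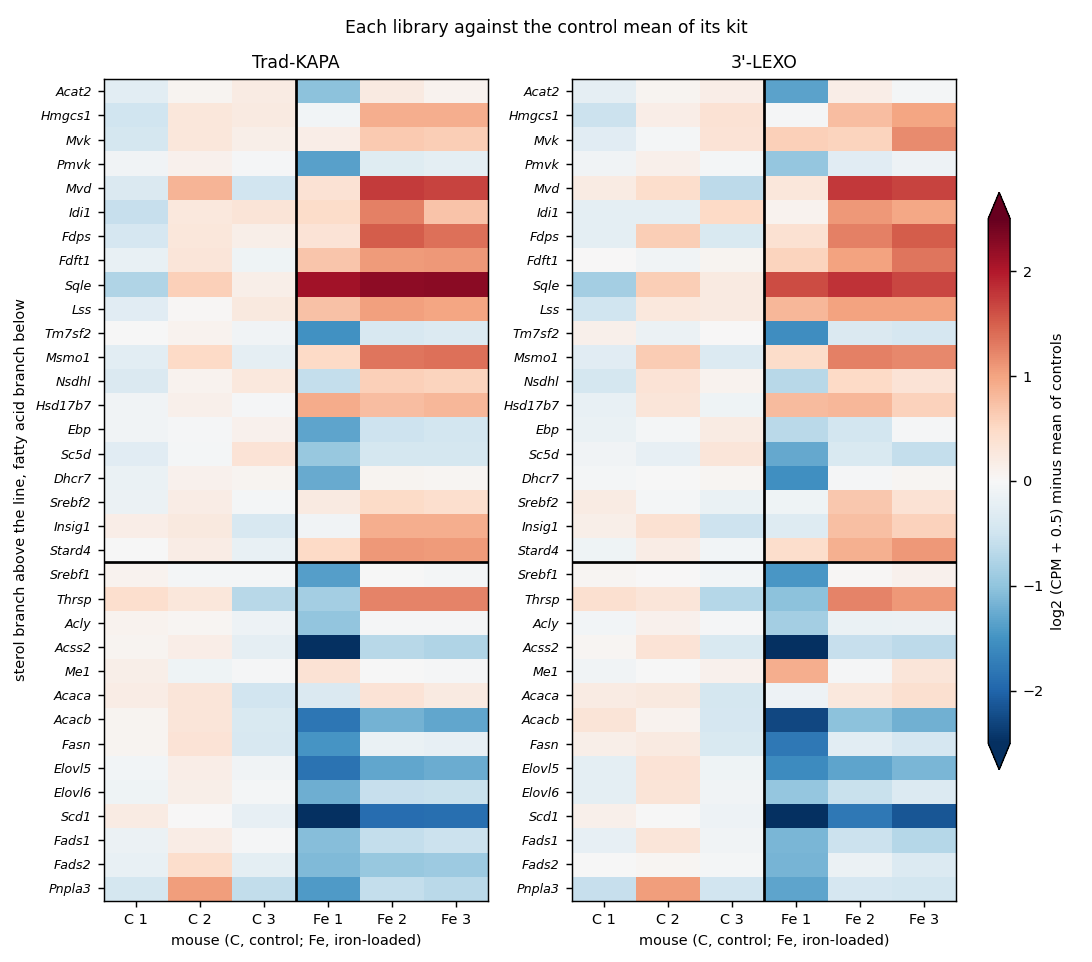
Log2 (CPM + 0.5) of each member in each library minus the mean of the 3 control libraries of its kit, with the sterol branch above and the fatty acid branch below. Most members are lower in iron-loaded mouse 1 than in the mean of mice 2 and 3 with both kits, Hsd17b7 and Me1 excepted, while Sqle is higher and Scd1 lower than the control mean in all 3 iron-loaded mice.

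The branches lay apart within each iron-loaded mouse. With Trad-KAPA, the median log2 difference from the control mean was 0.20, 0.83 and 0.77 over the sterol members in iron-loaded mice 1, 2 and 3, and -1.29, -0.58 and -0.55 over the fatty acid members. With 3’-LEXO it was -0.03, 0.76 and 0.58 and -1.24, -0.34 and -0.38. In the control mice it was -0.26, 0.19 and 0.09 and 0.07, 0.17 and -0.22 with Trad-KAPA, and -0.17, 0.16 and 0.05 and 0.02, 0.23 and -0.11 with 3’-LEXO. In each iron-loaded mouse the sterol median was above the fatty acid median, and mouse 1 had the lowest median of the 3 for both branches.

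**Figure D4:**
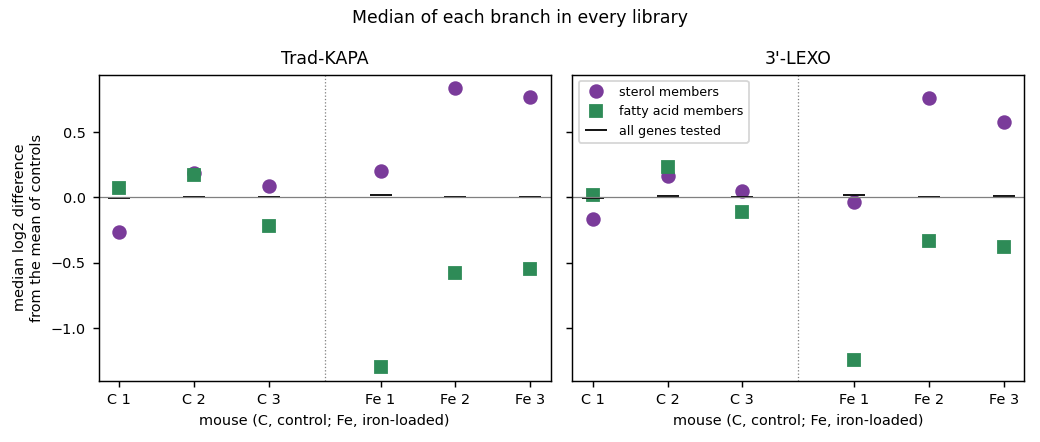
Median log2 difference from the control mean of the kit over the sterol members, over the fatty acid members and over all genes, in each library. In the 3 iron-loaded mice the sterol median lies above the fatty acid median with both kits, and both are lowest in iron-loaded mouse 1.

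On the control diet, levels per kb of merged exons with Trad-KAPA were from 0.399 ± 0.167 CPM per kb for Idi1 to 2742 ± 378 CPM per kb for Scd1 (SD, n = 3). After Scd1 came Elovl5 at 369 ± 36.4, Fads1 at 167 ± 20.0 and Fads2 at 154 ± 42.9 CPM per kb, and the last pair differed by less than their spread. The highest sterol members were Sc5d at 118 ± 26.5, Ebp at 88.1 ± 6.65 and Hmgcs1 at 68.1 ± 18.6 CPM per kb. Sqle, Mvd, Lss and Mvk were between 6.38 and 6.60 CPM per kb and differed by less than their spread. This likeness depends on the length used. The merged exons hold 10787 bases for Lss and 1859 for Mvd, and their control means were 70.2 and 12.2 CPM before the division.

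The diet changes of the kits were compared with the interaction of diet and kit over the 12 libraries. Of 14384 genes tested, edgeR called 0 (0.0%), with 402 at an unadjusted p below 0.05, and DESeq2 called 0. Of the 34 members, 0 were called in this fit and 0 had an unadjusted p below 0.05. Among members called with either kit, the difference between the log2 fold changes, 3’-LEXO minus Trad-KAPA, was largest for Fads2 at 0.52 ± 0.32 (SE) and Sqle at -0.52 ± 0.45. For Ebp, Fdps and Msmo1 it was 0.35 ± 0.31, -0.11 ± 0.50 and -0.15 ± 0.44. With the mouse as a block, which is warranted because each RNA was used with both kits, 5 genes and 0 members were called. The 3 members with the lowest p in this fit were Sqle, Ebp and Fads2. The differences were then -0.50 ± 0.12 for Sqle (edgeR adjusted p = 0.231), 0.38 ± 0.14 for Ebp (adjusted p = 0.525) and 0.44 ± 0.19 for Fads2 (adjusted p = 0.646).

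The levels themselves differed between the kits for some members. The log2 ratio of 3’-LEXO CPM to Trad-KAPA CPM per kb was centred on the median of 12217 genes, with a pseudocount of 0.5 CPM. It was -3.67 ± 0.43 for Fads2 and -2.73 ± 0.16 for Insig1 (SD, n = 6 mice), below 0 in 6 of 6 mice for both, at percentiles 0.712 and 2.01 of all genes. The highest ratios were those of Acaca at 1.63 ± 0.13, Hmgcs1 at 1.44 ± 0.11 and Sc5d at 1.26 ± 0.19, above 0 in 6 of 6 mice. The quartiles of all genes were -0.84 and 0.83. The median over the sterol members was 0.16 ± 0.107 and that over the fatty acid members -0.21 ± 0.0935. Without division by length these medians were 0.50 and -0.68. The ratio of Acaca was then -0.34, so that its sign turned, and the highest was that of Ebp at 1.97, while Fads2 stayed the lowest at -3.27.

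**Figure D5:**
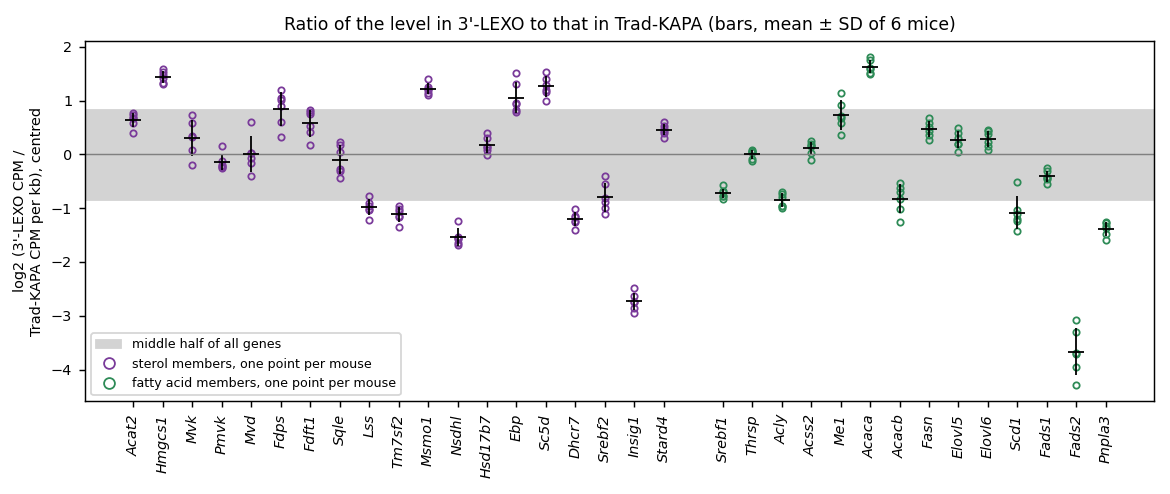
Log2 ratio of 3’-LEXO CPM to Trad-KAPA CPM per kb, centred on the median of all genes, for the 33 members tested with both kits. Points are the 6 mice, bars the mean and its SD, and the grey band runs between the quartiles of all genes. Fads2 and Insig1 lie far below the band.

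Other genes of the pathways were examined as lists. Of 16 other sterol genes, 15 were tested, and 4 were called higher and 2 lower with Trad-KAPA (all genes 8.77% and 8.37%), which is 26.7% and 13.3%, and 3 higher with 3’-LEXO (20%, all genes 3.17%). Soat2, which esterifies cholesterol, was at 1.04 ± 0.25 (adjusted p = 0.0270, edgeR) and 1.304 ± 0.24 (adjusted p = 0.0153). Insig2, a second retention protein of the SREBPs, was at -0.96 ± 0.24 (adjusted p = 0.0319, edgeR) and -0.88 ± 0.29 (adjusted p = 0.101). Cyp51, the lanosterol demethylase, was at 0.84 ± 0.20 (adjusted p = 0.0251, edgeR) and 0.93 ± 0.21 (adjusted p = 0.0371). The median log2 fold change of this list was 0.16 and 0.17.

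Of 23 other fatty acid and triglyceride synthesis genes, 4 were called higher and 4 lower with Trad-KAPA, which is 17.4% each way (all genes 8.77% and 8.37%). With 3’-LEXO, 1 was called higher and 1 lower, which is 4.35% each way and near the share of all genes (3.17% and 2.92%). Acsl3, an acyl-CoA synthetase, was at 1.32 ± 0.15 (adjusted p = 0.00294, edgeR) and 1.37 ± 0.19 (adjusted p = 0.00478). Elovl2, which elongates polyunsaturated fatty acids like Elovl5, was at -1.24 ± 0.14 (adjusted p = 0.00211, edgeR) and -1.27 ± 0.19 (adjusted p = 0.00750). Elovl3 was at -1.70 ± 0.30 (adjusted p = 0.0103, edgeR) and Lpin1, a phosphatidate phosphatase, at 1.04 ± 0.27 (adjusted p = 0.0340) with Trad-KAPA, and neither was called with 3’-LEXO. The median was -0.06 and -0.09. Of 12 LXR and cholesterol disposal genes, 1 was called higher (8.33%, near the 8.77% of all genes) and 2 lower (16.7%, all genes 8.37%) with Trad-KAPA, and 2 lower with 3’-LEXO (16.7%, all genes 2.92%). The bile acid enzymes Cyp7b1 and Cyp8b1 were at -1.20 ± 0.20 (adjusted p = 0.00908, edgeR) and -1.05 ± 0.10 (adjusted p = 0.00149) with Trad-KAPA and at -1.19 ± 0.26 (adjusted p = 0.0304) and -1.02 ± 0.15 (adjusted p = 0.00556) with 3’-LEXO. Abcg1, a cholesterol exporter, was at 0.46 ± 0.13 (adjusted p = 0.0388, edgeR) with Trad-KAPA.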

How the data were processed

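Liver RNA of 6 mice was prepared with 2 kits, which gave 12 libraries. Reads were mapped by the authors with STAR 2.5.3a to GRCm38, and the deposited values are raw counts per gene of uniquely mapped exonic reads, with duplicates kept. The counting program and the annotation release were not given in the sources used here. Symbols, positions and merged exon lengths came from GENCODE M21 (26940 of 27022 identifiers matched).

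Counts were tested with edgeR 4.0.16 in R 4.3.3 (quasi-likelihood test, TMM, filterByExpr, Benjamini-Hochberg adjustment at 0.05 over all genes tested), after the scripts had been tested on simulated data. Groups came from the sample titles. The number in the titles was taken to name the same mouse in both kits. Deviations of same-numbered libraries correlated across kits with r of 0.435 to 0.765. This r did not tell iron-loaded mice 2 and 3 apart. It was 0.511 and 0.559 for their same-numbered and 0.573 and 0.509 for their differently numbered libraries. All other differently numbered pairs had a negative r. Alternatives were DESeq2 1.42.0, its size factors, no filter or a mean of 50 counts, a replicate block, 10 M counts drawn per library, a fit of all 12 libraries, each mouse left out, and for the kit ratio another pseudocount and no length division. The sum of iron-loaded mice 2 and 3 was added after the data were seen. Every library is given for members called with either kit and for Srebf1 and Srebf2, and up to 4 genes with the largest changes are named per other list, of which 1 is not reported here. The members and lists were chosen with earlier results of these data known.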

Additional observations from a re-analysis of the deposited data

How the results depend on the processing

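The median log2 fold changes of both branches kept their direction and moved by less than the spread between mice under every setting run. The counts of calls moved. With no filter, 13 sterol and 8 fatty acid members were called with Trad-KAPA, with 2866 genes in all. With 3’-LEXO it was 11 and 10 members, with 2040 genes in all, and 7 genes were called in the interaction. For 3’-LEXO, DESeq2 called 10 sterol members and 1313 genes, and the fit of all 12 libraries 1681 genes. With iron-loaded mice 2 and 3 summed, an alternative chosen after seeing the data, 1147 and 445 genes and 5 and 1 sterol members were called. Leaving out 1 mouse gave 841 to 2803 genes, 4 to 15 sterol and 3 to 8 fatty acid members for Trad-KAPA, and 199 to 871, 0 to 9 and 1 to 4 for 3’-LEXO, each highest without iron-loaded mouse 1. The kit ratio medians without length division were 0.50 and -0.68. The cause was not tested.

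With the replicate number as a block, 1922 genes were called for Trad-KAPA, 436 for 3’-LEXO and 5 in the interaction. In the interaction the number was taken as the mouse. Across diets it is only a number (r of -0.163 to 0.098), and the block within a kit called 12 sterol and 5 fatty acid members for Trad-KAPA and 4 and 2 for 3’-LEXO.

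Log2 fold changes that changed sign were all of members not called. With mice 2 and 3 summed they were -0.032 for Acaca with Trad-KAPA and -0.070 for Nsdhl with 3’-LEXO. Over the fits without 1 mouse, the values with Trad-KAPA were -0.37 to 0.16 for Acat2, -0.46 to 0.062 for Dhcr7, -0.015 to 0.19 for Me1 and -0.14 to 0.25 for Acaca, and with 3’-LEXO -0.57 to 0.047 for Acat2, -0.029 to 0.30 for Acaca, -0.13 to 0.39 for Nsdhl and -0.54 to 0.067 for Srebf1. Low counts kept Idi1 out of the 3’-LEXO test.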
